A study of Mus musculus with 6 samples.

Results

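The 10 genes described here encode chains of cytokine receptors on T cells. They were chosen by name: Il2rg, which encodes the common gamma chain, 6 chains that work with it (Il2ra, Il2rb, Il7r, Il15ra, Il4ra and Il21r) and 3 related chains (Il12rb2, Il27ra and Il6ra). The choice rule uses no measured value, although it was written with earlier results of these data known. All 10 were found among the 56941 Ensembl identifiers of the count table, and all 10 were among the 13299 genes with enough counts to be tested. RNA was sequenced from CD8+ T cells of the spleen of B6 mice in 6 samples, 3 treated with vehicle and 3 with sphingosine-1-phosphate (S1P) at 5 µM. Every culture was activated for 3 days with plate-bound antibodies to CD3 and CD28 and received recombinant IL-2 at 100 U/ml, and vehicle or S1P was added after 24 h. The labels give purified naive CD8+ T cells as the starting material, while the methods of the study name naive T cells or total splenocytes. Samples are numbered in the labels as biological replicates, but no source used here ties them to separate animals, so p-values measure the spread between these samples.

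Cytokine receptors of this class have no kinase of their own. Their chains pair on the cell surface when a cytokine binds, Janus kinases (JAKs) on the chains phosphorylate each other and the receptor, and STAT transcription factors are recruited, activated and carried to the nucleus. The common gamma chain binds JAK3 and is shared by the receptors for IL-2, IL-4, IL-7, IL-9, IL-15 and IL-21. In CD8+ T cells, IL-2 and IL-12 favor expansion and effector function, IL-7 and IL-15 keep naive and memory cells alive, and the IL-7 receptor chain is lost from most cells that become effectors.

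Every member was well covered by counts. Each sample held 12048880 to 17384084 counts, and each member had between 391 and 20817 counts in every sample. Levels are given as CPM, which are counts divided by the scaled depth of the library. S1P-treated replicate 2 stood apart: 7.80% of its counts came from mitochondrially encoded genes, against 4.10% to 4.93% in the other 5 samples. Markers of T cells, with Cd8a and Cd8b1 among them, were present in all samples. The list also held Cd3d, Cd3e, Cd3g, Cd247, Trac and Lck, so its sum did not separate CD8+ from CD4+ T cells. Its 8 genes summed to 1584 to 1769 CPM with vehicle and 1429 to 1551 CPM with S1P. Cd8a and Cd8b1 themselves fell with S1P, by 0.67 and 0.55 on the log2 scale (edgeR adjusted p = 0.000243 and 0.00767), and the other 6 genes did not pass both thresholds. The cultures also held transcripts of other lymphocytes. The sum of 8 B cell genes was 629.6 to 789.0 CPM with vehicle and 644.3 to 738.2 CPM with S1P, with Ebf1 called higher and Ms4a1 and Cd22 called lower. The sum of 4 genes of CD4+ and regulatory T cells was 228.8 to 271.6 CPM with vehicle and 251.1 to 318.6 CPM with S1P, with Zbtb7b and Cd40lg called higher. Cd4, the defining gene of that list, had 186 to 222 CPM with vehicle and 194 to 254 CPM with S1P. Of 8 myeloid genes, 5 had at most 3 counts in every sample and the list summed to at most 1.31 CPM, and 6 NK cell genes summed to 2.59 to 4.90 CPM. B cells and CD4+ T cells make several of the 10 receptor chains too. In bulk RNA, fewer cells of a type and less RNA per cell cannot be told apart, and the part of these cells in the values below was not tested.

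After S1P, Il12rb2 and Il7r rose and Il27ra fell, while the 3 chains of the IL-2 receptor stayed within 0.23 log2 units of vehicle. A gene was called when its log2 fold change was 0.3 or more, up or down, and its adjusted p at most 0.05 (quasi-likelihood test of edgeR, adjusted by Benjamini and Hochberg's method across the table). By this rule 2 of 10 members were higher and 1 was lower. Across all tested genes 23.1% were called, 12.7% higher and 10.4% lower, so the share of members called was near that of the whole table. By adjusted p alone 6 members passed, against 28.5% of tested genes, and 3 of these had changes too small to be called. In 9 of 10 members the CPM of the groups did not overlap, with S1P above vehicle in 4 and below it in 5. The groups did not overlap in 45.6% of all tested genes. The median log2 fold change of the members was -0.09, beside 0.01 over all tested genes, and its median size was 0.24, beside 0.23.

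**Figure D1:**
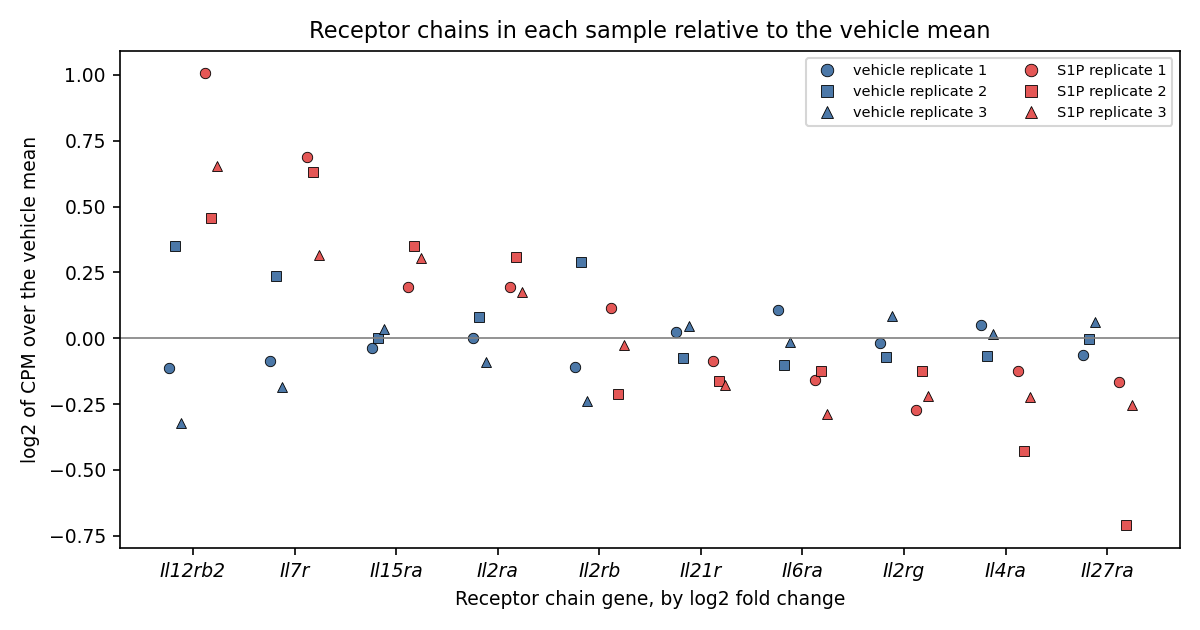
Level of each receptor chain in each of the 6 samples, as log2 of its CPM over the mean of the 3 vehicle samples (vertical axis), with genes ordered by log2 fold change (horizontal axis); color marks the group and symbol shape the replicate. Il12rb2 and Il7r stand highest with S1P, Il27ra lowest, mostly through S1P-treated replicate 2, and Il2rb is the 1 gene whose groups overlap.

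Divided by the exon length of each gene, the members spanned a wide range of levels. With vehicle, Il2rg (183 ± 10.1 CPM per kilobase, SD, n = 3) and Il2ra (179 ± 10.7) were the most abundant, followed by Il2rb (108 ± 21.3). Il21r (54.8 ± 2.44), Il4ra (30.0 ± 1.25), Il12rb2 (19.6 ± 4.82) and Il27ra (14.6 ± 0.620) formed the middle of the order. Il7r (6.49 ± 1.02), Il15ra (6.43 ± 0.159) and Il6ra (4.33 ± 0.313) were the least abundant. All chains of the high-affinity IL-2 receptor thus led the order in cells that were grown in IL-2. In 7 of the 9 steps of this order the sample ranges were separate; Il2rg did not differ from Il2ra beyond their spread, nor Il7r from Il15ra. Without vehicle replicate 2 all 9 steps were separate, but with Il15ra above Il7r.

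With S1P the order changed in 2 places. Il2ra (209 ± 10.5 CPM per kilobase) stood above Il2rg (159 ± 8.39), and their sample ranges no longer overlapped. Il12rb2 (32.4 ± 6.38) stood above Il4ra (25.2 ± 2.68), but these ranges overlapped. Il2rb was at 105 ± 11.9 CPM per kilobase and Il21r at 49.7 ± 1.70, and both kept their places. At the lower end came Il27ra (11.4 ± 2.17), Il7r (9.54 ± 1.28), Il15ra (7.84 ± 0.435) and Il6ra (3.80 ± 0.225). Here 6 of 9 steps were separate, and Il27ra and Il7r, and Il7r and Il15ra, overlapped. Without S1P-treated replicate 2 all 9 steps were separate.

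**Figure D2:**
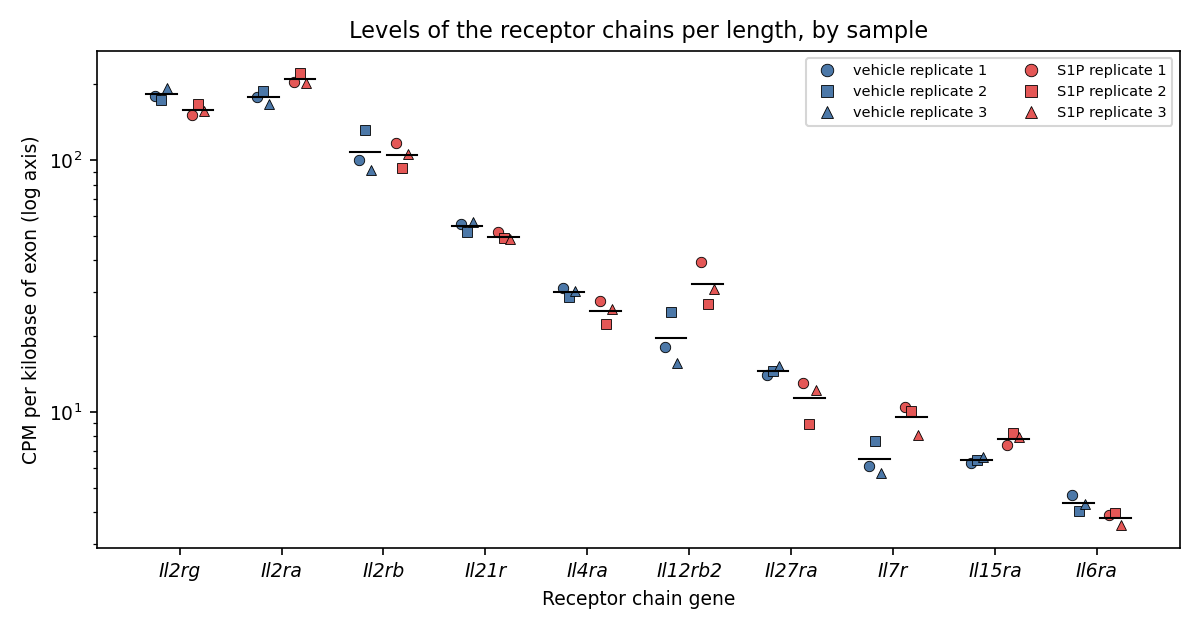
Level of each receptor chain in CPM per kilobase of exon (vertical axis, log scale) for the 6 samples, with genes ordered by the vehicle mean (horizontal axis); points are samples and horizontal bars are group means, n = 3 per group. Il2rg, Il2ra and Il2rb lie above 90 CPM per kilobase in every sample, and Il6ra lies below 5.

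Il2rg lies on chromosome X (chrX:100307984-100311861, minus strand, GRCm39; ENSMUSG00000031304). Its level was 431, 415 and 462 CPM in the 3 vehicle samples and 361, 400 and 374 CPM in the 3 S1P samples. Each S1P sample was below each vehicle sample. This gave a log2 fold change of -0.20 (SE 0.07), and the edgeR adjusted p of 0.0528 missed the threshold. The interval of the change, -0.36 to -0.05, covers a fold of 0.778 to 0.968. Over 18 alternative fits the adjusted p of Il2rg was 0.00783 to 0.212, on both sides of the threshold, with 0 calls.

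Il2ra encodes CD25, the alpha chain that turns the IL-2 receptor into its high-affinity form, and lies at chr2:11647618-11698004 on the plus strand (ENSMUSG00000026770). It had 1023, 1081 and 959 CPM in vehicle samples and 1169, 1265 and 1154 CPM in S1P samples. The S1P values all lay above the vehicle values. The log2 fold change was 0.23 (SE 0.08, edgeR adjusted p = 0.0439), a fold of 1.17 with an interval of 1.04 to 1.32, which passed on p and not on size. This pass depended on the fit: over 18 alternative fits the adjusted p of Il2ra was 0.011 to 0.194, with 0 calls. Its neighbor Il15ra begins 12096 bases downstream on the same strand (chr2:11710101-11739128, ENSMUSG00000023206). Il15ra encodes the alpha chain that binds IL-15 and presents it to cells that carry the beta and gamma chains. It was measured at 27.9, 28.6 and 29.3 CPM with vehicle and at 32.7, 36.5 and 35.3 CPM with S1P. The vehicle samples had a coefficient of variation of 2.48%, and every S1P sample was above them. Its log2 fold change was 0.28 (SE 0.08, edgeR adjusted p = 0.0223), which also passed on p and not on size. The adjusted p of Il15ra was 0.0153 to 0.132 over the same 18 fits, so its pass depended on the fit too.

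Il2rb encodes the beta chain that the IL-2 and IL-15 receptors share (chr15:78363456-78395566, minus strand, ENSMUSG00000068227). It varied more between replicates than any other chain of the IL-2 receptor. Vehicle samples had 434, 573 and 397 CPM and S1P samples 507, 404 and 460 CPM, so the groups overlapped. Its log2 fold change was -0.03 (SE 0.13, edgeR adjusted p = 0.868), with an interval of -0.31 to 0.24. As folds this is 0.808 to 1.18, so smaller changes in either direction were not detectable here. Its sign turned in some alternative fits, and 8.65% of its exon bases lie under a gene on the other strand (Gm62993).

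Il7r encodes the alpha chain of the IL-7 receptor (chr15:9505874-9530262, minus strand, ENSMUSG00000003882). It was measured at 28.5, 35.6 and 26.6 CPM with vehicle and at 48.8, 46.9 and 37.7 CPM with S1P. All S1P samples lay above all vehicle samples, although S1P-treated replicate 3 was only slightly above vehicle replicate 2. The log2 fold change was 0.56 (SE 0.12, edgeR adjusted p = 0.00624), a fold of 1.48 with an interval of 1.22 to 1.78. Leaving out each sample in turn gave 0.47 to 0.69. Il7r was called in all 18 alternative fits as well, with an adjusted p of at most 0.0391. No exon base of Il7r overlaps another annotated gene.

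Il12rb2 had the largest change of the members. It encodes the signaling chain of the IL-12 receptor, which binds JAK2 and recruits STAT4 and is a marker of type 1 responses, and it lies at chr6:67268302-67353172 on the minus strand (ENSMUSG00000018341). Vehicle samples had 68.9, 94.8 and 59.5 CPM and S1P samples 149, 102 and 117 CPM. The lowest S1P sample, replicate 2, was above the highest vehicle sample, also replicate 2, by a small margin. This rise was 0.73 on the log2 scale (SE 0.16, edgeR adjusted p = 0.00668), a fold of 1.66 with an interval of 1.30 to 2.12. Without each sample in turn it was 0.56 to 0.93, and all 18 alternative fits called it, with an adjusted p of at most 0.0379. Of its exon bases, 40.0% lie under Serbp1 on the opposite strand, and the strand setting of the counting is not given in the sources used here. Serbp1 had 1421, 1536 and 1547 CPM with vehicle and 1269, 2094 and 1552 CPM with S1P (log2 fold change 0.13, edgeR adjusted p = 0.547). S1P-treated replicate 1 had the most Il12rb2 and the least Serbp1, and the part of Serbp1 reads in the Il12rb2 counts was not tested.

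Vehicle replicate 2 was the highest vehicle sample for Il12rb2, Il7r, Il2ra and Il2rb. It was also the highest for Cd8a (207, 250.1 and 207 CPM in the vehicle samples) and for Cd8b1 (103, 146 and 101 CPM). With S1P, Cd8a was at 144, 132 and 142 CPM and Cd8b1 at 86.0, 73.2 and 79.5 CPM, so Il12rb2 and Il7r were higher in the group in which the CD8 genes were lower. The part of this sample's composition in the values was not tested.

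The 150 bases before the RefSeq starts of Il12rb2 and Il7r are shown because both are the called-higher members and theirs were the only member promoters that held the palindrome bound by STAT dimers, TTCNNNGAA, also named GAS. The sequences are those of the RefSeq promoter table (GRCm38.p6), placed on GRCm39 by an exact match, and are written 5′ to 3′ along the gene, ending at the base before the RefSeq start, with the palindrome in capitals. For Il12rb2 (chr6:67353173-67353322, minus strand) the palindrome spans the bases 123 to 115 before the start, and for Il7r (chr15:9529963-9530112, minus strand) the bases 142 to 134. The Il12rb2 stretch ends where the GENCODE gene begins, whereas the Il7r stretch lies inside the GENCODE gene, whose annotated start is further upstream than that of RefSeq.
Il12rb2: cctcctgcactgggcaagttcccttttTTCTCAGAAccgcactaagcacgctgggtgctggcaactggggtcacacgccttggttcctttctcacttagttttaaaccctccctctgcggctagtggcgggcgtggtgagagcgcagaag
Il7r: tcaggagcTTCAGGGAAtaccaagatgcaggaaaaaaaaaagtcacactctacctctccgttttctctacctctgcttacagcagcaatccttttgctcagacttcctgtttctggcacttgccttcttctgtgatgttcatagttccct

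The search covered 13 short motifs on both strands of promoters running from 250 bases before to 50 after the start, 32851 in all, with 9 promoters for 8 of the 10 members (Il2rb and Il27ra were not in the table). TTCNNNGAA was in 8.30% of all promoters. Among genes with a promoter it was in 9.03% of those called higher, 8.28% of those called lower and 8.30% of those not called, so the palindrome was about as frequent whatever the call. Its stricter form TTCCNGGAA, each match of which also matches the looser form, was in 1.15% of promoters and in no member. Il7r also held TGTGGTT (RUNX, 5.27% of promoters) and GGAAAA (NFAT, 23.4%). Il15ra held TGANTCA (AP-1, 7.81%) and GGAAAA, Il21r held GTAAACA (FOXO, 3.65%) and Il2rg held ACCGGAAG (ETS, 2.30%). No member matched TGATGNAA, the composite site of ATF4 and CHOP (3.97% of promoters), or TGACGTCA, the cyclic AMP element (1.79%). The T-box letters TCACACC (3.98%) and the NF-kB letters GGGACTTTC (0.353%) were also in no member. The same was true of TATAAA, the TATA box, which 13.6% of all promoters hold. Nor did any member hold TACGTG, a hypoxia element found in 3.23% of promoters. A match describes the letters in these windows only.

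Il4ra and Il21r lie next to each other on chromosome 7, on the same strand and 19756 bases apart (chr7:125151079-125182844, ENSMUSG00000030748, and chr7:125202601-125232756, ENSMUSG00000030745). Il4ra encodes the chain that binds IL-4 and, with another partner, IL-13. Its level was 310, 286 and 303 CPM with vehicle and 275, 223 and 257 CPM with S1P, with every S1P sample lower. The log2 fold change was -0.25 (SE 0.08, edgeR adjusted p = 0.0398), which passed on p and not on size. In 18 alternative fits the adjusted p of Il4ra was 0.0066 to 0.142, on both sides of the threshold. Il21r encodes the chain that binds IL-21. It had 189, 177 and 192 CPM with vehicle and 175, 166 and 165 CPM with S1P, again with no overlap but with the groups close together. A log2 fold change of -0.14 (SE 0.07, edgeR adjusted p = 0.130) did not pass on p, with an interval of -0.28 to 0.00273. With an offset for GC content it was -0.07.

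Il27ra encodes the chain that binds IL-27 and signals together with gp130 (chr8:84756916-84769253, minus strand, ENSMUSG00000005465). Vehicle samples were close together, at 58.0, 60.5 and 63.2 CPM, and S1P samples had 54.0, 37.0 and 50.8 CPM. The groups did not overlap, and S1P-treated replicate 2 was far below the other S1P samples. The log2 fold change was -0.35 (SE 0.12, edgeR adjusted p = 0.0421), a fold of 0.784 with an interval of 0.657 to 0.936. This call was close to both thresholds. Without S1P-treated replicate 2 the change was -0.21 (edgeR adjusted p = 0.0362), under the fold threshold. Over 18 alternative fits it was called in 10, with adjusted p-values of 0.00175 to 0.137, and among the 6 that each left out a sample it was called only without S1P-treated replicate 1.

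Il6ra encodes the chain that binds IL-6, which also signals through gp130 (chr3:89771366-89820719, minus strand, ENSMUSG00000027947). It was the least abundant member per length. It was measured at 41.3, 35.8 and 38.0 CPM with vehicle and at 34.4, 35.2 and 31.4 CPM with S1P. The groups were separated by less than 1 CPM. On the log2 scale the change was -0.19 (SE 0.09, edgeR adjusted p = 0.117), with an interval of -0.38 to -0.00350, and was not called.

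Because each partner chain works with the common gamma chain, its counts were also divided by those of Il2rg within each library, which does not depend on the scaling between libraries. For Il7r this ratio was 0.0662, 0.0859 and 0.0576 with vehicle and 0.135, 0.117 and 0.101 with S1P. For Il2ra it was 2.37, 2.61 and 2.07 with vehicle and 3.24, 3.16 and 3.08 with S1P. For Il15ra it was 0.0647, 0.0690 and 0.0634 with vehicle and 0.0906, 0.0912 and 0.0944 with S1P. In these 3 genes all S1P ratios lay above all vehicle ratios, and for Il2ra and for Il15ra the S1P ratios lay close together.

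The ratio to Il2rg was 1.70-fold higher with S1P for Il7r, 1.40-fold for Il15ra and 1.35-fold for Il2ra. The exact permutation test, two-sided, gave p = 0.1 for each, the smallest p that 3 against 3 samples allow, and 0.2 after Benjamini-Hochberg adjustment over the 6 ratios, so no ratio could pass 0.05. The other 3 ratios overlapped between the groups. Their log2 differences were 0.18 for Il2rb (exact p = 0.4), 0.06 for Il21r (exact p = 0.5) and -0.05 for Il4ra (exact p = 0.8). These values rested on single samples: the difference for Il2rb was 0.0292 without vehicle replicate 3, 0.0697 without S1P-treated replicate 1, 0.31 without S1P-treated replicate 2 and 0.37 without vehicle replicate 2. That for Il21r was 0.00184 without S1P-treated replicate 1 and 0.12 without S1P-treated replicate 2. Il2rg was lower in every S1P sample, which by itself raises every ratio.

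**Figure D3:**
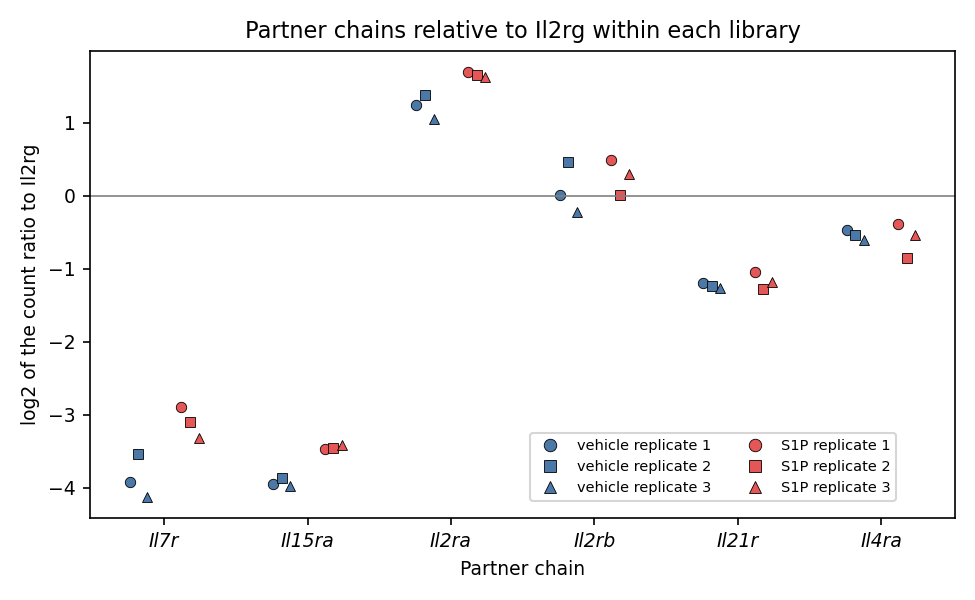
Log2 of the ratio of each partner chain's counts to those of Il2rg in the same library (vertical axis) for 6 partner chains (horizontal axis), with color for the group and symbol shape for the replicate, n = 3 per group. All S1P points lie above all vehicle points for Il7r, Il15ra and Il2ra, and the points of the groups overlap for Il2rb, Il21r and Il4ra.

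Other pairs of chains were compared in the same way, after their values had been seen and without a test. Il12rb2 and Il12rb1 encode the 2 chains of the IL-12 receptor. The ratio of Il12rb2 to Il12rb1 counts was 0.512, 0.762 and 0.451 with vehicle and 1.28, 1.05 and 1.15 with S1P. All S1P ratios were above all vehicle ratios. The ratio of Il27ra to Il6st, which encodes gp130, was 0.665, 0.625 and 0.767 with vehicle and 0.515, 0.403 and 0.543 with S1P, with no overlap. The ratios of Il2ra to Il2rb, Il7r to Il2ra, Il6ra to Il6st and Il15ra to Il2rb overlapped between the groups in at least 1 pair of samples.

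Other cytokine receptor chains were read from a list of 33 genes, of which 20 had enough counts to be tested. Of these 3 were called higher and 2 lower, and the groups did not overlap in 7, with a median log2 fold change of 0.03. Across all tested genes 23.1% were called and the groups did not overlap in 45.6%. Il10ra, the chain that binds IL-10, had 53.3, 59.0 and 49.8 CPM with vehicle and 80.2, 68.3 and 71.3 CPM with S1P (log2 fold change 0.44, edgeR adjusted p = 0.00331). Ifngr2, the signaling chain of the interferon-gamma receptor, had 20.5, 19.0 and 19.6 CPM with vehicle and 28.0, 27.3 and 25.5 CPM with S1P (0.45, edgeR adjusted p = 0.0031). Il12rb1, the other IL-12 receptor chain, fell from 134, 124 and 132 CPM to 117, 96.8 and 102 CPM (-0.30, edgeR adjusted p = 0.0148), just past the fold threshold. In these fits the chains of the IL-12 receptor moved in opposite directions, but Il12rb1 was called in only 10 of 18 alternative fits, with changes of -0.39 to -0.24, and lost its call without vehicle replicate 1 or 3 or S1P-treated replicate 2 or 3. Prlr, the prolactin receptor, rose by 1.42 on the log2 scale from about 0.403 to 0.513 CPM to 1.18 to 1.31 CPM, and Lifr, the receptor for leukemia inhibitory factor, fell by 0.80 from 4.76 to 6.90 CPM to 2.98 to 4.32 CPM. Prlr had only 6 to 21 counts per sample, and Lifr lost its call without vehicle replicate 1 or 3 or S1P-treated replicate 3. Il6st, the partner of Il27ra and Il6ra, changed by 0.12 on that scale, which was not past the threshold (edgeR adjusted p = 0.274).

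Of 13 genes for the ligands of these receptors, 8 had enough counts, 2 were called higher and the median log2 fold change was 0.49. The share called higher among all tested genes was 12.7%. No ligand gene was called lower by edgeR, limma-voom or DESeq2, and 1 was lower at an unadjusted p under 0.05. Il21 was at 4.66, 5.64 and 4.88 CPM with vehicle and at 7.02, 6.30 and 7.68 CPM with S1P (log2 fold change 0.48, edgeR adjusted p = 0.0379). Ebi3, a subunit of IL-27, was at 2.24, 2.20 and 2.37 CPM with vehicle and at 5.17, 4.03 and 4.46 CPM with S1P (1.01, edgeR adjusted p = 0.00269), with a gene on the other strand over 51.1% of its exon bases. Il2 itself, which was also supplied to the cultures as protein, had 7.42, 5.12 and 8.66 CPM with vehicle and 5.05, 3.94 and 6.19 CPM with S1P, with overlapping groups (-0.48, edgeR adjusted p = 0.115). The remaining 5 tested ligand genes were not called, with log2 fold changes of 0.72 for Il15, 0.55 for Il4, 0.50 for Il13, 0.36 for Il12a and 0.16 for Il9 (edgeR adjusted p = 0.147 to 0.753). Il21 was called in 7 of 18 alternative fits and, when samples were left out singly, only without S1P-treated replicate 2, while Ebi3 was called in all 18.

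All 4 JAK genes were tested and 2 were called, both higher, where 12.7% of all tested genes were called higher. Jak2, the kinase bound by Il12rb2 and gp130, had 459, 378 and 443 CPM with vehicle and 709, 823 and 716 CPM with S1P (log2 fold change 0.81, edgeR adjusted p = 0.000123). Jak3, the kinase bound by the common gamma chain, had 108, 117 and 108 CPM with vehicle and 161, 122 and 137 CPM with S1P (0.34, edgeR adjusted p = 0.0194). The groups were well apart for Jak2 and close together for Jak3, in which S1P-treated replicate 2 was the lowest S1P sample. The call of Jak3 was lost without vehicle replicate 1 or 3 or S1P-treated replicate 1 or 3, at changes of 0.22 or more, and that of Jak2 held in all 18 alternative fits. Jak1, which binds most partner chains of the family, was at 0.11 log2 units above vehicle (edgeR adjusted p = 0.218), and for Tyk2, the kinase of Il12rb1, the value was -0.07 (edgeR adjusted p = 0.594). No JAK gene was lower at an unadjusted p under 0.05, nor called lower by DESeq2 or limma-voom.

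Of 6 STAT genes described here, 2 were called higher and the median log2 fold change was 0.29. Across all tested genes 12.7% were called higher. Stat3, which acts downstream of the IL-6, IL-21 and IL-27 receptors, had 311, 322 and 278 CPM with vehicle and 479, 399 and 418 CPM with S1P (log2 fold change 0.51, edgeR adjusted p = 0.00134). Stat2, an interferon signaling factor, had 60.0, 57.7 and 65.0 CPM with vehicle and 111, 127 and 107 CPM with S1P (0.92, edgeR adjusted p = 3.7e-05). Stat5a and Stat5b, the main STATs of IL-2, IL-7 and IL-15, passed on p with changes just under the fold threshold (0.28 and 0.29, edgeR adjusted p = 0.0121 and 0.0322). Stat6, the IL-4 factor, had a log2 fold change of 0.14 and Stat4, the IL-12 factor, one of 0.06, neither of which passed on p. None of these 6 genes was lower at an unadjusted p under 0.05, nor called lower by DESeq2 or limma-voom.

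**Figure D4:**
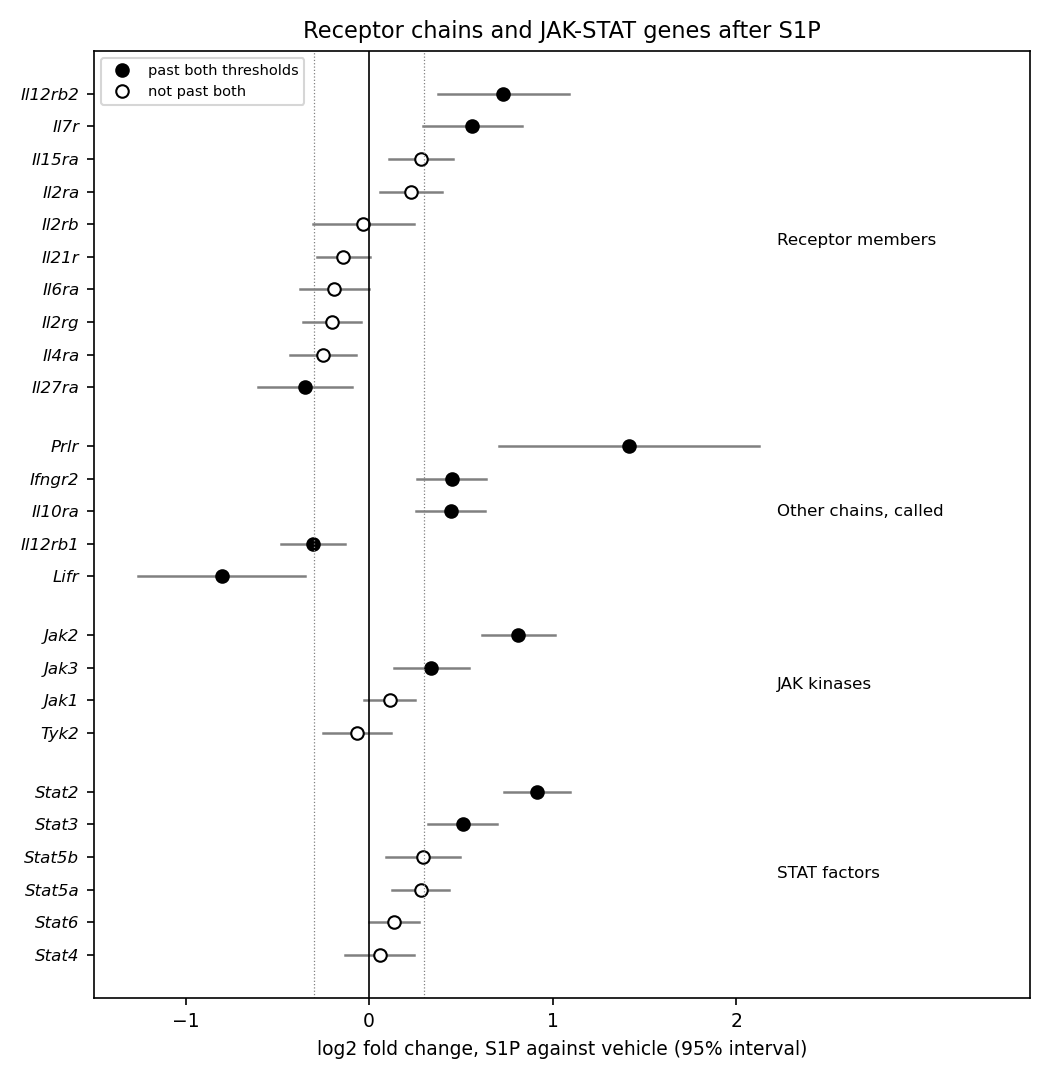
Log2 fold change of S1P against vehicle with its 95% interval (horizontal axis; n = 3 per group) for the 10 receptor members, the called genes among other receptor chains, and 4 JAK and 6 STAT genes; filled points passed both thresholds and dotted lines mark a size of 0.3. Il12rb2 and Il7r lie to the right of the dotted line, and Jak2, Stat2 and Stat3 change by amounts of the same order.

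The feedback inhibitors and phosphatases that damp these receptors numbered 17, all tested, with a median log2 fold change of -0.04. edgeR called 2 higher and 0 lower, while 6 were lower at an unadjusted p under 0.05 and DESeq2 called 2 lower and limma-voom 0. Over all tested genes edgeR called 23.1%. Socs3, an inhibitor of receptors that signal through gp130, had 20.3, 18.4 and 19.0 CPM with vehicle and 36.5, 35.8 and 30.9 CPM with S1P (0.84, edgeR adjusted p = 0.000123). Ptpn2, a phosphatase of JAK1, JAK3 and STATs, had 124, 128 and 128 CPM with vehicle and 147, 199 and 165 CPM with S1P (0.43, edgeR adjusted p = 0.00737).

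Of 16 genes that IL-2 and STAT5 are known to control, 2 were called higher and 2 lower, and the median log2 fold change was -0.04. Among all tested genes 23.1% were called. The higher ones were Socs3 and Bcl2, a survival gene that IL-7 also controls, at 227, 252 and 216 CPM with vehicle and 383, 348 and 370.4 CPM with S1P (0.67, edgeR adjusted p = 0.000132). The lower ones were Ifng, the gene of interferon-gamma (198, 219 and 211 CPM with vehicle and 134, 168 and 143 CPM with S1P, -0.50, edgeR adjusted p = 0.00162), and Lta, the gene of lymphotoxin alpha (82.3, 60.5 and 88.5 CPM with vehicle and 46.2, 62.6 and 53.8 CPM with S1P, -0.52, edgeR adjusted p = 0.0163). The groups overlapped for Lta, which lost its call without vehicle replicate 1 or 3 or S1P-treated replicate 3, and not for Ifng, of whose exon bases 26.0% overlap another gene on the same strand. The list did not move 1 way: genes of the same list lay on both sides.

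Of 12 transcription factors known to act on receptor genes, 2 were called higher and 1 lower, with a median log2 fold change of 0.16 and groups that did not overlap in 9, where 23.1% of all tested genes were called and 45.6% did not overlap. Eomes, which activates Il2rb in CD8+ T cells, fell by 0.86 on the log2 scale, from 61.9, 66.7 and 65.9 CPM to 31.3, 42.0 and 34.3 CPM (edgeR adjusted p = 0.000162). Il2rb, described above, was not called. Runx3, a factor of the CD8 lineage, rose from 90.7, 100.4 and 78.6 CPM to 140.4, 132 and 118 CPM (0.54, edgeR adjusted p = 0.0018), and Gata3 rose from 20.1, 23.4 and 18.5 CPM to 32.7, 32.2 and 31.0 CPM (0.63, edgeR adjusted p = 0.000864). Among 4 genes for proteases and cofactors that shed receptor chains, edgeR, DESeq2 and limma-voom each called 0. One of them, Adam10, which was picked after its values were seen, passed on p and not on size (-0.24, edgeR adjusted p = 0.0206), and it was the 1 gene lower at an unadjusted p under 0.05.

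For each called member, the tested gene with the most similar pattern over the 6 samples was found as the one with the smallest root mean square difference of centered log2 CPM. For Il12rb2 this was Sema4c (difference 0.0802, against a median of 0.482 over all genes), for Il7r Tmem35b (0.0640 against 0.374) and for Il27ra Slc30a1 (0.0361 against 0.310). These genes gave few counts, with 1.03 to 3.26 CPM for Sema4c, 1.55 to 2.98 CPM for Tmem35b and 6.74 to 11.9 CPM for Slc30a1. Their log2 fold changes were 0.84, 0.66 and -0.39, close to those of the members because the genes were picked for a similar pattern. Their edgeR adjusted p-values of 0.0587, 0.0556 and 0.0598 missed the threshold.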

How the data were processed

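RNA-seq counts of 6 samples were analyzed, 3 per group. The deposited values are whole-number counts per gene, without normalization, that the authors made from strand-specific libraries of polyadenylated RNA. Per the submitters' processing notes, reads were trimmed with Trim Galore, aligned to GRCm39 with STAR and counted with featureCounts, and the authors tested differences with DESeq2. Tool versions, annotation release, strand setting and treatment of multiply mapping reads are not given in the sources used here. Symbols, positions and exon lengths came from GENCODE vM39, which held 56323 of 56941 identifiers. Promoters came from RefSeq.

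Counts were filtered with filterByExpr, scaled with TMM factors and tested with edgeR 4.0.16 (quasi-likelihood, treatment as the only term, limma 3.58.1, R 4.3.3), with Benjamini-Hochberg adjustment over 13299 genes. The standard error of the log2 fold change had a median of 0.11 over tested genes and was 0.07 to 0.16 over members. A prior count of 2 was used for log2 CPM, which served the GC offset, the nearest genes and the correlation of same-numbered samples. It was not set for the fitted log2 fold changes. Ratios to Il2rg were compared by an exact permutation test (scipy 1.17.1). Levels per length are CPM per kilobase of exon. The main edgeR fit was also run on simulated counts with known changes, and the alternative edgeR, DESeq2 and limma-voom fits were not.

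The text names all members, called genes of each pathway list (at most 4 per direction, by size), JAK and STAT genes (except 1 that is not reported here), ligands that passed the filter and the nearest gene of each called member. The lists were written from general knowledge of the pathway, and the members, lists and motifs were chosen with earlier results of these data known. Il6st and the receptor pairs without Il2rg were picked after their values were seen. Alternatives were DESeq2 1.42.0, limma-voom, other scaling factors, filters and thresholds, an offset for GC content (lowess, span 0.3), the replicate number as a block, no mitochondrially encoded genes, a pseudocount of 0.5 for ratios, TPM over all genes for levels, and the fit without each sample.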

Additional observations from a re-analysis of the deposited data

How the results depend on the processing

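Il7r and Il12rb2 kept their calls in all 18 alternative fits, so the count of members called higher stayed at 2 or 3 in these fits. The count called lower, 1 (Il27ra), was 0 with upper quartile factors (log2 fold change -0.33), with total count scaling (-0.37) and with the GC offset (-0.29), and 0 to 2 without each sample. Il27ra lost its call without any 1 sample other than S1P-treated replicate 1, with changes of -0.41 to -0.21 in those fits. Il15ra was called with upper quartile factors (0.31) and, at 0.33, without S1P-treated replicate 1, and Il4ra without that sample (-0.32). By adjusted p alone, 4 members were higher and 2 lower, and at a log2 fold change of at least 1, 0 were higher and 0 lower. The fold change of Il2rb turned positive with the GC offset (0.0282), with that offset and the block (0.0439), without vehicle replicate 2 (0.13) and without S1P-treated replicate 2 (0.05), and was -0.14 to 0.13 without each sample in turn. The log2 difference in the ratio of Il4ra to Il2rg was -0.15 to 0.0731 without each sample and turned positive without S1P-treated replicate 2. The cause was not tested. Of 84 tested pathway genes other than the members, 14 were called higher and 5 lower, beside 23.1% called over all tested genes. Of these 19, 14 were called in every alternative fit that gave an adjusted p. The lower count was 8 with total count scaling, 9 with no filter on low counts, 8 with the GC offset and the block, 10 by adjusted p alone, 0 at a log2 fold change of at least 1 (where 2 were higher), and 2 to 9 without each sample. Same-numbered samples of the groups deviated together weakly or not at all (r = 0.12, -0.00598 and 0.0483 across genes). The sources used here do not say whether they share an animal, and these correlations cannot decide it. With the replicate number as a block, 2 members were called higher and 1 lower, and 13 and 7 pathway genes. The median log2 fold change of all genes was 0.184 with DESeq2 and 0.159 with no filter, against 0.01. Il7r, Il15ra and Il6ra had the fewest counts, but the standard error was largest for Il12rb2 (0.16), Il2rb (0.13) and Il7r (0.12).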
